A study of Mus musculus with 2 samples.

Results

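The genes described here attract neutrophils or receive that signal, 7 of the 31053 genes in the matrices. They are the chemokines Cxcl1, Cxcl2, Cxcl3 and Cxcl5, their receptor Cxcr2, and the chemokine Cxcl12 with its receptor Cxcr4. The 7 were taken by symbol and not by a cut on their values, from a list made with earlier results of these data known. All 7 were present in both matrices. Cells of the colonic lamina propria, the connective tissue under the gut epithelium, were separated in droplets and the 3' ends of their transcripts sequenced cell by cell, in male C57BL/6 mice aged 6 to 8 weeks. The mice were kept free of specific pathogens, and the labels name no inflammatory challenge. One library was labelled wild type and the other was labelled deficient in the long noncoding RNA Lncly6c (1700016P04Rik), with the whole gene deleted with CRISPR-Cas9 on a C57BL/6J background. Every pair of values below gives the wild-type-labelled library first and the deficient-labelled library second.

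There was 1 library per group. How many mice each library held is not given in the labels. No test between groups was therefore possible, every interval below covers counting error only, and a gap between libraries cannot be told apart from a gap between genotypes. The labels and the names of the deposited files name the genotypes the other way round, and if the file names were right, all directions below would turn over. The libraries held 3020 and 6133 barcodes with 23384895 and 54773076 unique molecular identifier (UMI) counts, a UMI standing for 1 captured RNA molecule. After filtering, 2605 and 5889 cells with medians of 6206 and 7848 UMIs remained, and 7 barcode sequences occurred in both libraries. They formed 27 clusters, which gave 18 classes. A class in which markers of a fixed list were detected is called "-like", though 4 such clusters had no marker among their 10 leading genes, and 3 clusters are called by their leading gene. Lncly6c itself had 0 UMIs in both libraries and gave no check of the labels. Levels are UMIs of a gene per 1000000 UMIs of the class (CPM), with exact Poisson 95% intervals. A 3' count does not scale with transcript length, so genes are set side by side on this scale as captured molecules.

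CXCL1, CXCL2, CXCL3 and CXCL5 are small secreted proteins that bind CXCR2, the receptor through which neutrophils follow them out of the blood and into tissue. Macrophages and monocytes are well-known sources after Toll-like receptor or cytokine signals, and stromal and epithelial cells make some of them, CXCL5 in particular. CXCL12 is made by stromal cells and acts through CXCR4, which holds neutrophils in the bone marrow and is also used by lymphocytes. The mouse genes of the 4 CXCR2 ligands lie on chromosome 5 within 146.6 kb, in the order Cxcl5 (90759360 to 90761624), Cxcl3 (90786103 to 90789600), Cxcl1 (90891241 to 90893115) and Cxcl2 (90903871 to 90905938), all on the plus strand of GRCm38. Cxcr2 (74153989 to 74161246, plus strand) and Cxcr4 (128588199 to 128592293, minus strand) are on chromosome 1. Cxcl12 (117168535 to 117181367, plus strand) is on chromosome 6.

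The promoters of Cxcl1, Cxcl2 and Cxcl3 are shown because these 3 genes varied together across the cell classes described below. Of the 7 genes, 6 had an entry in RefSeq's promoter windows (GRCm38.p6), and Cxcl5 was the other. The sequences run 5' to 3' on the plus strand from base 120 to base 31 before the RefSeq start, at chr5:90891125-90891214, chr5:90903779-90903868 and chr5:90785981-90786070. Capitals mark GGGAATTTCCC, the longest run of bases that all 3 share in the 250 bases before the start, which is of the kappaB type that NF-kB binds.
Cxcl1: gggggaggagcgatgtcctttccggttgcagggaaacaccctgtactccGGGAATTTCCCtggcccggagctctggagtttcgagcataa
Cxcl2: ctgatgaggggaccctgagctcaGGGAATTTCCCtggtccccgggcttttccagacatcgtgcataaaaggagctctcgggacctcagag
Cxcl3: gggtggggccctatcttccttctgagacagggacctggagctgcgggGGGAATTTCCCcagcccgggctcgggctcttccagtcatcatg
GGGAATTTCCC was searched on both strands of the 250 bases before the start. It lay on the sense strand at bases 71 to 61 before the start in Cxcl1, 97 to 87 in Cxcl2 and 73 to 63 in Cxcl3, and it was not in the windows of Cxcr2, Cxcr4 and Cxcl12. Of all 32851 promoter windows of that length, 14 held it (0.0426%); since it was chosen for being shared by these 3, the share is a description. The looser form GGGNNNNNCCC, which contains it and reads the same on both strands, was in 12.2% of the windows. Set side by side from the start without gaps, 23 of the 90 printed bases of Cxcl1 and Cxcl2 were the same, and 26 in each of the other pairs. The RefSeq starts differ from the gene starts given above, most for Cxcl2, whose gene start of 90903871 lies just past the printed bases. Positions before the start and these counts therefore depend on the start used. The counts are not read as likeness or as its absence. A match describes these letters and is not evidence of a bound site.

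Cxcl2 was by far the most captured of the 7 genes, with 340134 UMIs over all barcodes, against 29731 of Cxcl1, 23027 of Cxcr4, 10100 of Cxcl3, 4967 of Cxcl12, 720 of Cxcr2 and 64 of Cxcl5. Transcripts of Cxcl2 and Cxcl3 share a run of 157 bases, but no more than 16 bases within their last 400, where 3' reads mostly start, and no other pair of the 4 ligands shares more than 23 bases anywhere. Monocyte-like, macrophage-like and neutrophil-like cells together held 82.1% and 74.9% of Cxcl2 UMIs, 78.7% and 78.8% of Cxcl1 UMIs, and 65.8% and 65.5% of Cxcl3 UMIs. The other 4 genes were distributed differently. Cxcr2 lay mostly in neutrophil-like cells, Cxcl12 in fibroblast-like cells, and Cxcr4 over all leukocytes with its highest level in B cell-like cells, while Cxcl5 had too few UMIs to place in the wild-type-labelled library.

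**Figure D1:**
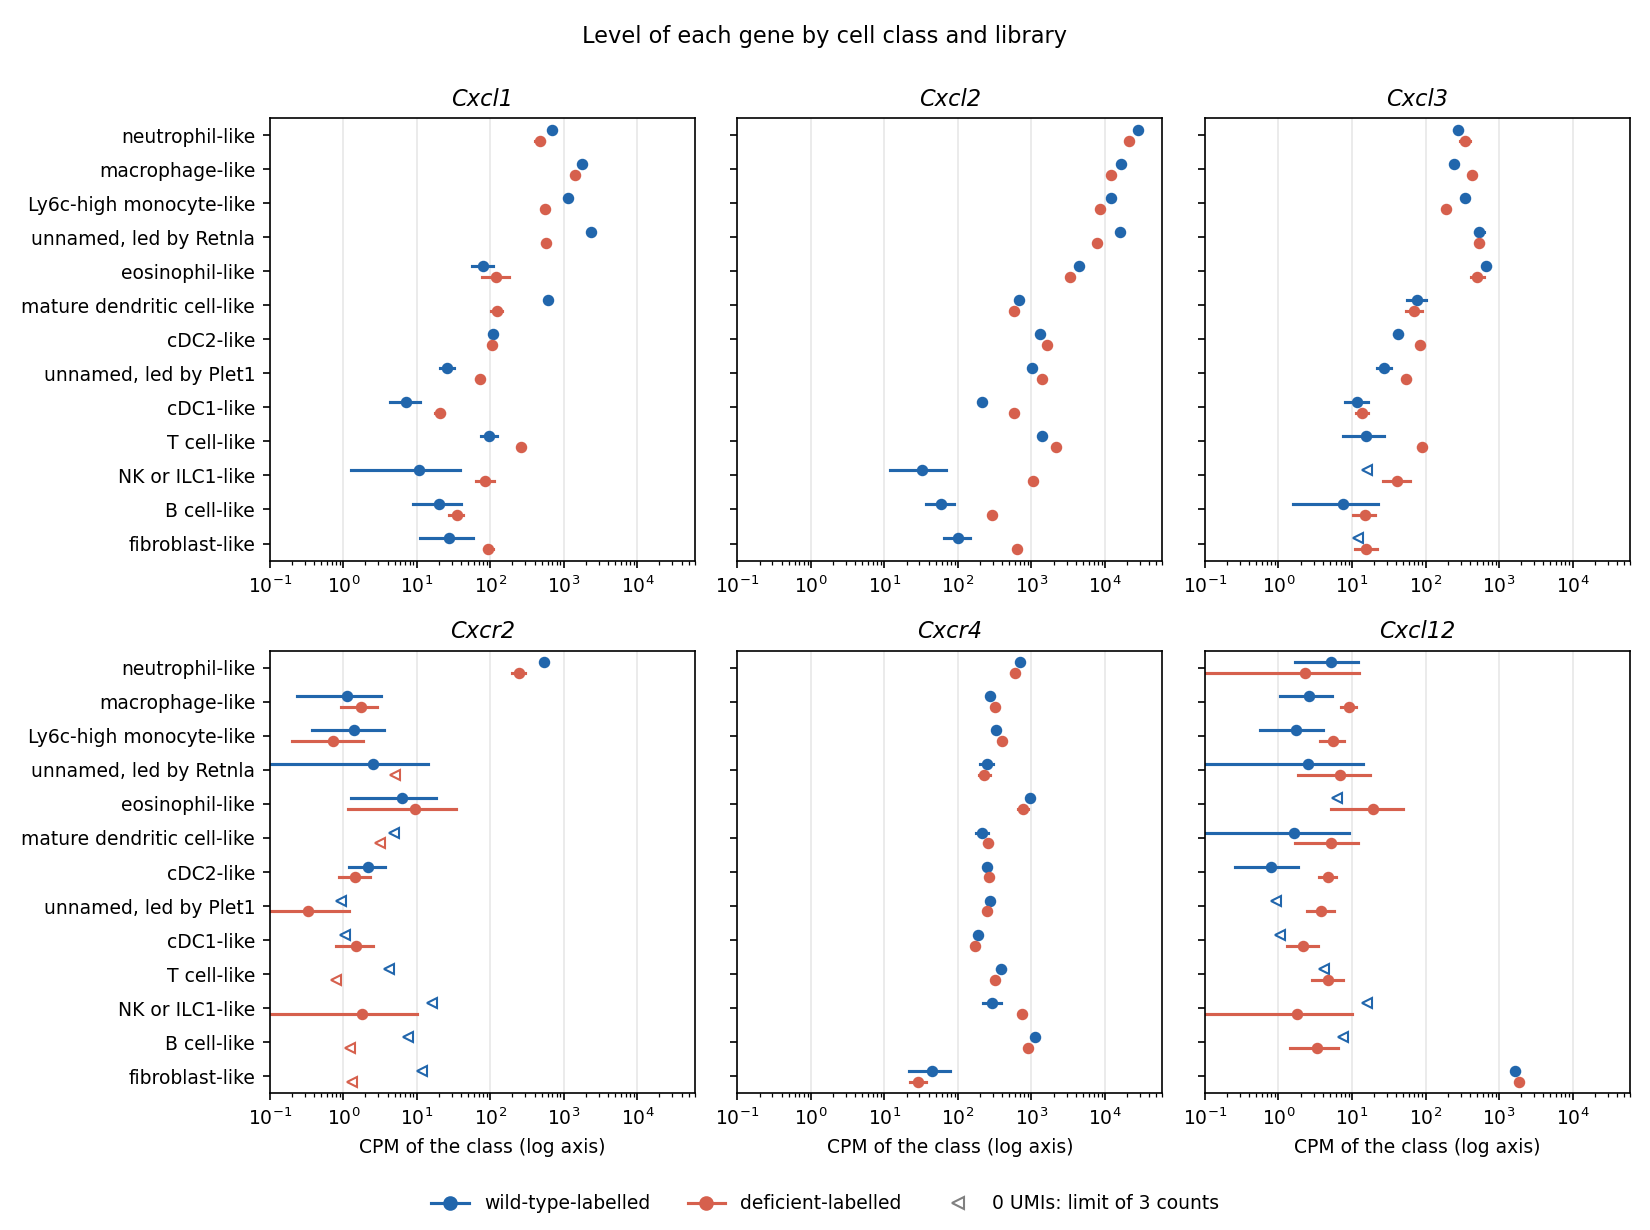
Level of 6 of the genes in 13 cell classes of each library, as UMIs per 1000000 UMIs of the class on a log axis; points are the summed class, bars are exact Poisson 95% intervals, and open triangles mark a count of 0 at the limit that 3 counts would give. Cxcl2 runs from 28269 CPM in wild-type-labelled neutrophil-like cells to 32.0 in the NK or ILC1-like cells of that library, while Cxcr2 and Cxcl12 each stand out in 1 class.

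Cxcl2 was highest in neutrophil-like cells, the cells its receptor serves. Its level there was 28269 (27935 to 28606) and 21354 (20926 to 21789) CPM, or 2.83% and 2.14% of all UMIs of these cells. Macrophage-like cells followed with 16586 (16432 to 16742) and 12222 (12146 to 12298) CPM. Ly6c-high monocyte-like cells had 12096 (11969 to 12224) and 8597 (8519.5 to 8675) CPM. In a small cluster led by Retnla (37 and 70 cells), which shares macrophage markers, the level was 16193 (15799 to 16594) and 7768 (7544 to 7996) CPM. In the wild-type-labelled library the counting intervals of the macrophage-like class and the Retnla-led cluster overlapped, and in both libraries neutrophil-like cells stood apart above the rest.

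Eosinophil-like cells came next with 4378 (4192 to 4569) and 3311 (3069 to 3568) CPM. These cells are shallow, with a median of 853 UMIs. Their leading genes held the eosinophil genes Ccr3 and Alox15 but also Retnlg, a neutrophil gene. The 10 eosinophil markers summed to 2406 and 1430.2 CPM, with the granule gene Epx at 0 in both libraries, and the 12 neutrophil markers to 8313 and 6810 CPM. The part of neutrophil RNA in the values of this class was not tested. Dendritic cells were lower. The conventional dendritic cells of the cDC2-like class, which present antigen to helper T cells, had 1289 and 1628 CPM, the Plet1-led dendritic cluster had 1009.9 and 1376, mature dendritic cell-like cells 682 and 571 and cDC1-like cells 213 and 587. At the low end of the wild-type-labelled library stood B cell-like cells, with 58.4 (37.0 to 87.6) and 289 (268 to 311) CPM, and NK or ILC1-like cells, with 32.0 (11.7 to 69.6) and 1047 (964 to 1135) CPM. In the deficient-labelled library NK or ILC1-like cells stood above mature dendritic cell-like and cDC1-like cells. T cell-like cells, described further below, had 1381 and 2175 CPM.

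The breadth of Cxcl2 was also seen cell by cell. Shares were compared after each cell was thinned at random to 1000 UMIs, since deeper cells show more genes. Of the thinned neutrophil-like cells 99.2% (97.3 to 99.9) and 100% (97.4 to 100) held a Cxcl2 UMI, with exact Clopper-Pearson 95% intervals. The shares were 88.6% (84.2 to 92.1) and 92% (90.1 to 93.7) of macrophage-like, 83.7% (79.3 to 87.5) and 85.3% (82.5 to 87.7) of monocyte-like and 75.2% (68.8 to 81.0) and 78.7% (64.3 to 89.3) of eosinophil-like cells. Thinning left out 10 and 6 neutrophil-like cells but 214 and 197 eosinophil-like cells, so the eosinophil share describes the deeper ones. Unthinned, 74.0% and 75% of eosinophil-like cells had a Cxcl2 UMI.

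B cell-like cells, which are not a known source, held a Cxcl2 UMI in 9.52% (4.2 to 17.9) and 20.1% (16.9 to 23.6) of thinned cells and in 23.5% and 54.3% of all, at median depths of 4394 and 3502 UMIs. NK or ILC1-like cells showed 7.32% and 20.7% and fibroblast-like cells 23.8% and 24.0% of thinned cells. Free RNA was not measured, so shares of this size are not read as expression. Those of cDC1-like cells (18.2% and 25.9%) lay above the B cell-like intervals in both libraries, and are not read as expression either. Few cells held most of the UMIs in some of these classes: 3 of 121 deficient-labelled NK or ILC1-like cells held 77.7%, and 3 of 296 fibroblast-like cells 51.9%. Lyz2, a gene of monocytes and macrophages, stood at 40.6 and 204 CPM in the same B cell-like class.

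**Figure D2:**
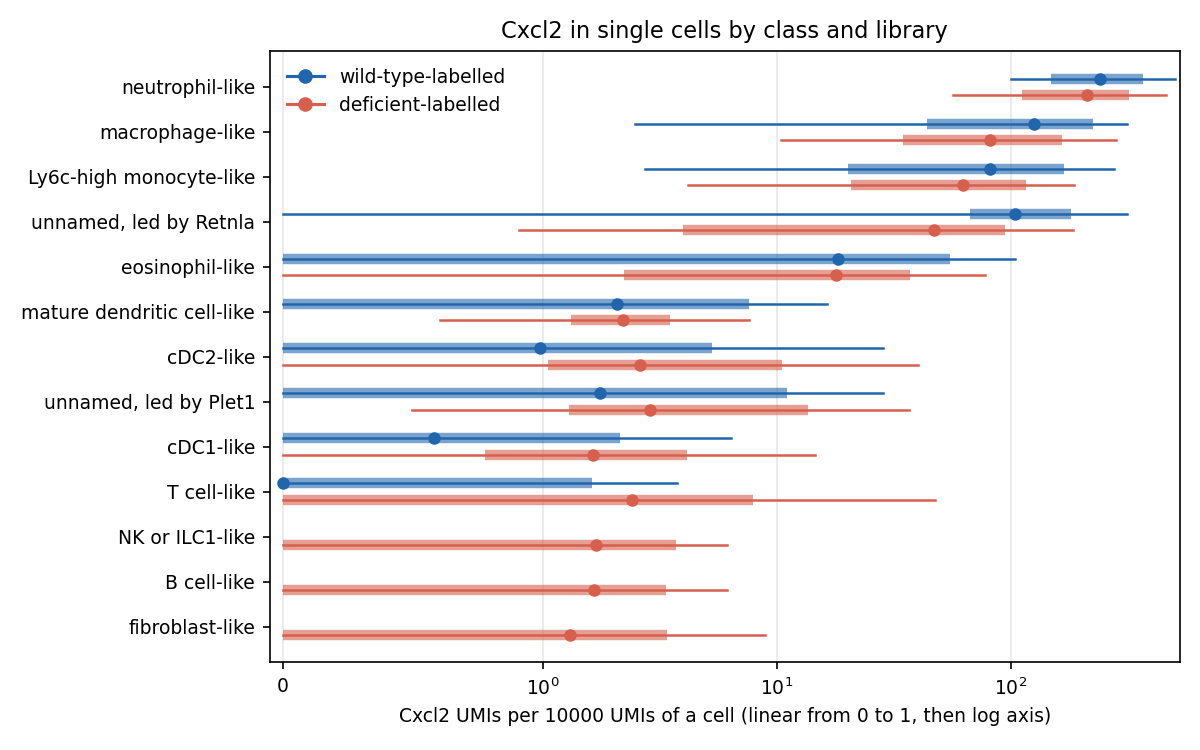
Cxcl2 UMIs per 10000 UMIs of a cell in each class and library, on an axis that is linear from 0 to 1 and logarithmic above; points are medians over cells, thick bars the 25th to 75th and thin lines the 10th to 90th percentile. Wild-type-labelled NK or ILC1-like, B cell-like and fibroblast-like cells have fewer than 50 Cxcl2 UMIs and are not drawn; neutrophil-like cells have the highest medians, 240.4 and 212, and their 10th percentiles are 101 and 56.6.

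Within a class the 3 ligands were spread over cells very differently. The 10% of neutrophil-like cells with most Cxcl2 held 24.9 and 24.3% of that class's Cxcl2 UMIs, and nearly every cell held some. In macrophage-like cells the top 10% held 31.7 and 33.5%, and in cDC2-like cells 74.1 and 65.2%. Cxcl1 and Cxcl3 were carried by few cells: the top 10% of neutrophil-like cells held 82.2 and 88.0% of Cxcl1 UMIs and 88.9 and 73.2% of Cxcl3 UMIs. In macrophage-like cells these shares were 42.3 and 58.5% for Cxcl1 and 66.4 and 60.5% for Cxcl3. Part of this concentration is sampling, since a gene with few UMIs cannot be spread over all cells.

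Cxcl1, which encodes the chemokine also known as KC, had its highest named level in macrophage-like cells and not in neutrophil-like cells. The Retnla-led cluster had 2336 (2188 to 2491) and 568 (509 to 632) CPM. Macrophage-like cells had 1763 (1713 to 1814) and 1397 (1371 to 1423) CPM, and monocyte-like cells 1153 (1114 to 1193) and 557 (537 to 577) CPM. Neutrophil-like cells had 701 (649 to 756) and 472 (410.4 to 541) CPM. Mature dendritic cell-like cells (42 and 81), which carry Ccr7 and Fscn1, had 611 (551 to 677) and 122 (101 to 146) CPM; 3 cells held 67.5% of the UMIs in the wild-type-labelled library, so that value rests on few cells. Eosinophil-like cells, at 79.4 and 119.98 CPM, and cDC2-like cells, at 108 and 106 CPM, were far lower. The intervals of monocyte-like and neutrophil-like cells overlapped in the deficient-labelled library, and those of mature dendritic cell-like and neutrophil-like cells in the wild-type-labelled one.

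Cxcl3 had another order again, with eosinophil-like cells and the Retnla-led cluster at the top. The levels were 668 (597 to 746) and 509 (416 to 615) CPM in eosinophil-like cells and 539 (469 to 617) and 541 (483 to 604) CPM in the Retnla-led cluster, and their intervals overlapped in both libraries. Macrophage-like cells had 244 (226 to 264) and 427 (413 to 441) CPM, monocyte-like cells 349 (328 to 371) and 191 (179 to 203) CPM and neutrophil-like cells 280.1 (248 to 316) and 346 (293 to 405) CPM. After thinning, 23.3% and 25.5% of eosinophil-like cells held a Cxcl3 UMI, against 10.7% and 20.5% of macrophage-like, 7.53% and 10.1% of monocyte-like and 9.77% and 16.9% of neutrophil-like cells, and 1.19% and 1.05% of B cell-like cells.

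The 3 ligands stood in different proportions in the classes. Per 100 Cxcl2 UMIs, macrophage-like cells held 10.6 and 11.4 Cxcl1 UMIs, monocyte-like cells 9.53 and 6.48, neutrophil-like cells 2.48 and 2.21 and eosinophil-like cells 1.81 and 3.62. Cxcl1 was thus a larger part of the ligand RNA in macrophages and monocytes than in granulocytes. For Cxcl3 the eosinophil-like cells had the largest proportion, with 15.3 and 15.4 Cxcl3 UMIs per 100 Cxcl2 UMIs, against 0.991 and 1.62 in neutrophil-like, 1.47 and 3.49 in macrophage-like and 2.88 and 2.22 in monocyte-like cells. In mature dendritic cell-like cells Cxcl1 reached 89.6 and 21.3 per 100 Cxcl2 UMIs, and Cxcl3 11.3 and 12.2, with intervals that overlapped those of eosinophil-like cells. In the deficient-labelled library the proportion of Cxcl1 was 12.1 in B cell-like, 8.18 in NK or ILC1-like, 3.49 in cDC1-like and 6.54 in cDC2-like cells.

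**Figure D3:**
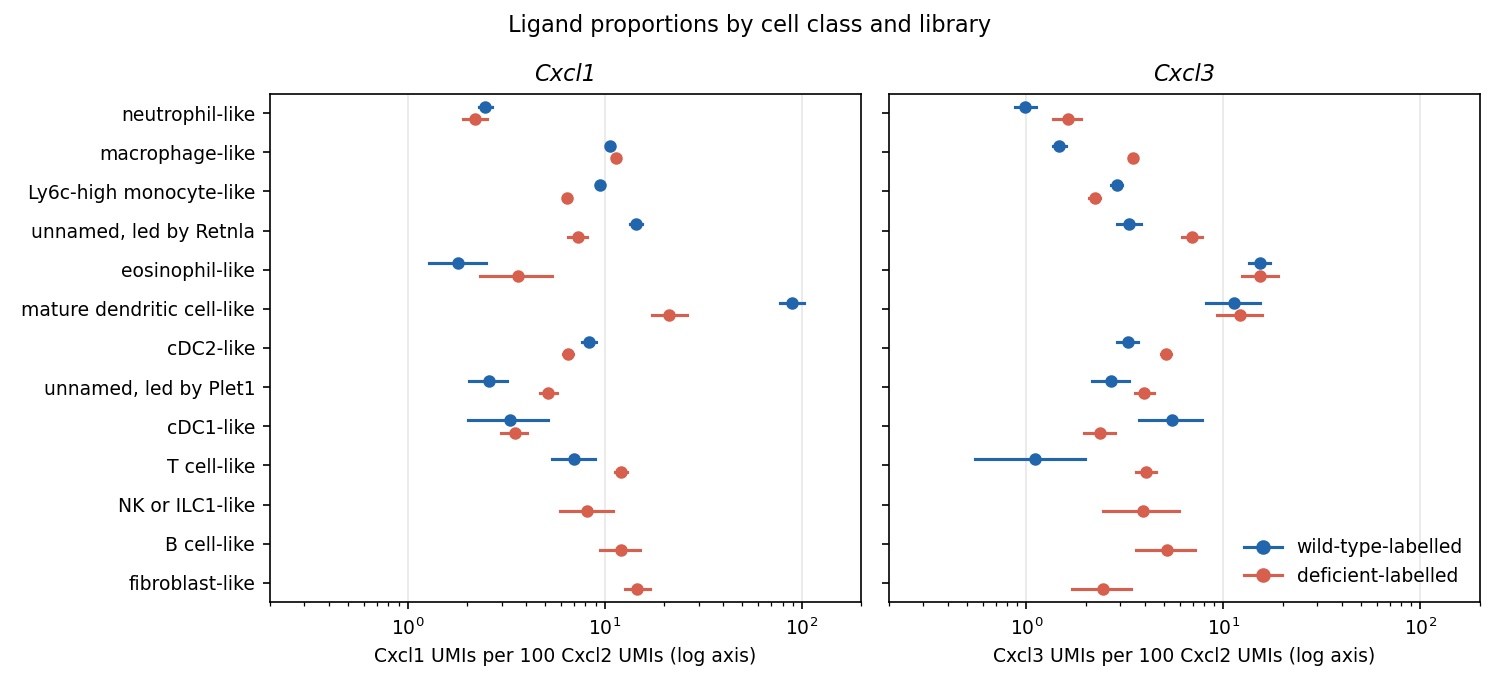
Cxcl1 UMIs (left) and Cxcl3 UMIs (right) per 100 Cxcl2 UMIs in each class and library, on log axes, with 95% counting intervals; classes with fewer than 100 Cxcl2 UMIs in a library are left out there. Macrophage-like cells hold 10.6 and 11.4 Cxcl1 UMIs and neutrophil-like cells 2.48 and 2.21, and eosinophil-like cells have the largest Cxcl3 proportion of the classes shown, 15.3 and 15.4.

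Cxcl1 and Cxcl2 were often found in the same cell. Of thinned macrophage-like cells with a Cxcl2 UMI, 51.0% and 38.7% also held Cxcl1, against 6.45% and 5.41% of those without. In monocyte-like cells these shares were 32.4% and 20.2% with Cxcl2, and 5.56% and 8.26% without. Cxcl3 was likewise found in 22.1% of macrophage-like cells with Cxcl2 and 2.70% of those without, in the deficient-labelled library.

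Across 33 profiles, 1 for each class and library with enough cells, Pearson's r of log levels was 0.85 between Cxcl1 and Cxcl2, 0.83 between Cxcl2 and Cxcl3 and 0.77 between Cxcl1 and Cxcl3. The profiles share libraries and related classes, so these are descriptions with no p. By a fixed rule, the 3 genes most like each member among 9948 were then named. Those most like Cxcl2 were Hmox1, the heme oxygenase (r = 0.93), Rab20 (0.91) and Rnf149 (0.90). Hmox1 stood at 1154 and 1269.8 CPM in neutrophil-like, 813 and 1059 in macrophage-like and 17.8 and 44.4 in B cell-like cells. Cxcl1 was most like Tnf (0.86), Zeb2os (0.84) and the coagulation factor gene F10 (0.83). Cxcl3 was most like Il1rn, which encodes the interleukin 1 receptor antagonist (0.93), Ptafr, the receptor of platelet-activating factor (0.91), and Il1a (0.90).

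Cxcl5 was almost absent. Its 63 UMIs among kept cells lay in 23 cells. Of these UMIs 36 were in 8 fibroblast-like cells of the deficient-labelled library, 2.70% of its 296 and a level of 15.7 CPM (11 to 21.8). The wild-type-labelled library had 22 fibroblast-like cells with 0 UMIs, which allows up to 11.9 CPM at a limit of 3 counts. Macrophage-like cells had 7 and 11 UMIs. Epithelial cells, a known source of CXCL5, were few here: 22 and 26 goblet cell-like cells, with no Cxcl5 UMI.

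Cxcr2, the receptor of the 4 ligands, lay mainly in neutrophil-like cells, which held 521 and 108 UMIs, or 94.9% and 66.7% of those in the kept cells of each library. After thinning, 44.7% (38.7 to 50.9) and 23.2% (16.6 to 31.1) of neutrophil-like cells held a Cxcr2 UMI. In no other class of at least 50 cells in each library did the share of thinned cells pass 1%. cDC2-like cells had 14 and 18 UMIs, macrophage-like cells 3 and 14, cDC1-like cells 0 and 13 and eosinophil-like cells, the other granulocytes, 3 and 2. Every thinned neutrophil-like cell with Cxcr2 held Cxcl2 too, 119 of 119 and 33 of 33, and nearly every neutrophil-like cell held Cxcl2 regardless of Cxcr2. The genes most like Cxcr2 were Chil1 (0.98), Lrg1 (0.98) and Stfa2l1 (0.97), of which Stfa2l1 was also among the genes leading the neutrophil-like cluster.

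Cxcr4 was the member spread most evenly over leukocytes. The B cell-like class had the highest level, 1109 (1008 to 1218) and 893 (856 to 931) CPM. Eosinophil-like cells had 944 (859 to 1035) and 768 (653 to 896) CPM and neutrophil-like cells 695 (643 to 749) and 589.7 (520.3 to 666) CPM. NK or ILC1-like cells had 293 (221 to 382) and 738 (669 to 813) CPM from 41 and 121 cells. The other leukocyte classes lay closer together. T cell-like cells had 383 and 322 CPM, monocyte-like 330.5 and 396, macrophage-like 272 and 319.7, cDC2-like 249.7 and 268 and cDC1-like 185 and 169.9. Fibroblast-like cells, the source of its ligand, had 43.7 and 28.8 CPM. The intervals of B cell-like and eosinophil-like cells overlapped in both libraries, so their order is not settled.

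Among thinned neutrophil-like cells, Cxcr4 was found in 42.9% and 48.5% of cells with a Cxcr2 UMI and in 45.6% and 38.5% of those without. These intervals overlapped in both libraries, so no difference was detectable at this depth. The genes most like Cxcr4 were Btg1 (0.90), Ankrd44 (0.88) and Ptk2b (0.86).

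Cxcl12 was a fibroblast gene in these libraries. Fibroblast-like cells held 421 and 4220 of the 4926 UMIs in kept cells, at 1673 (1517 to 1841) and 1842 (1787 to 1899) CPM, and 52.4% (29.8 to 74.3) and 78.0% (72.8 to 82.7) of thinned fibroblast-like cells held a UMI. The libraries had only 22 and 296 of these cells, and 3 cells held 48.0% of the UMIs in the first, so no ratio is given. In other classes of 50 or more cells it stayed under 30 CPM. The most alike genes were Rarres2 (0.99), Fbln1 (0.99), which encodes a matrix protein, and Serping1 (0.99), which encodes the C1 inhibitor, and all 3 peaked in fibroblast-like cells too.

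The libraries were then compared within 10 classes that held at least 50 cells in each, for genes with at least 50 UMIs over both. Ratios are the log2 of the deficient-labelled CPM divided by the wild-type-labelled CPM, with the exact conditional binomial 95% interval, and a gene is counted as higher or lower past 1.5-fold. The question these ratios address is how far the chemokine genes differ where Lncly6c is deleted, which 1 library on each side cannot answer for the genotype.

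In neutrophil-like cells (276 and 148 cells) the receptor differed most. Cxcr2 stood at 539 (493 to 587) and 244 (200.2 to 295) CPM, a log2 ratio of -1.14 (-1.45 to -0.84), and was the only 1 of 5 measured members past 1.5-fold lower, with none higher; over all 2816 genes measured there, 9.73% were lower and 13.8% higher. Thinned to equal depth, 44.7% and 23.2% of cells held Cxcr2. These shares come from the same UMIs as the ratio, and cells of 1 library are not replicates. Cxcl2 had a ratio of -0.40 (-0.44 to -0.37), Cxcl1 -0.57 (-0.80 to -0.34), Cxcr4 -0.24 (-0.45 to -0.03) and Cxcl3 0.30 (0.01 to 0.59). The Cxcl1 ratio has no stable direction: it was -0.81 without the 1 cell per library that held most Cxcl1 and 0.23 with finer clusters.

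Other neutrophil genes differed in the same class. The summed level of the 12 neutrophil markers was 82271 and 58351 CPM, with S100a8 at 27346 and 18892 and S100a9 at 36679 and 25466. Csf3r, the receptor of granulocyte colony-stimulating factor, had a log2 ratio of -0.56. RNA of other cells was higher in the deficient-labelled neutrophil-like cells: the 14 macrophage markers summed to 987 and 2465 CPM, with Mertk at 0 in the wild-type-labelled library. Cd79a, a B cell gene, stood at 0 and 81.3 CPM. Median depth was 3025 and 2277 UMIs, and neutrophil-like cells made up 10.6% and 2.51% of all cells. The part of these differences in the Cxcr2 ratio was not tested.

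In macrophage-like cells (292 and 958 cells) the most captured ligands were lower and Cxcl3 was higher in the deficient-labelled library. Cxcl2 had a ratio of -0.44 (-0.46 to -0.42) and Cxcl1 of -0.34 (-0.39 to -0.29), both within 1.5-fold. Cxcl3 had 0.81 (0.68 to 0.93). Cxcl12 had 1.77 (0.65 to 3.13), from 7 and 73 UMIs. These last 2 were the members past 1.5-fold higher among the 5 measured, none was lower, and the background was 8.78% higher and 4.93% lower of 8563 genes. Of the macrophage-like clusters, the C1q-high and Mmp13-led one had a Cxcl3 ratio of 1.34 (1.14 to 1.54) and the Il10-led and Ptgs2-led one 0.37 (0.22 to 0.53), so without the former the class ratio was 0.41, within 1.5-fold. Scored as the mean over cells, in which 1 shallow wild-type-labelled cell reached 484 Cxcl3 UMIs per 10000, the ratio was 0.13. Fibroblast markers, which bear on the low Cxcl12 counts, summed to 233 and 318 CPM in macrophage-like cells, with Pdgfra at 0 in the wild-type-labelled library, and the part of such RNA was not tested.

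Ly6c-high monocyte-like cells (343 and 739 cells) had lower Cxcl1 in the deficient-labelled library in both clusters that could be measured. The class ratio was -1.05 (-1.12 to -0.98) for Cxcl1 and -0.49 (-0.51 to -0.47) for Cxcl2. Cxcl1 and Cxcl3 were the 2 of 4 measured members past 1.5-fold lower, against 7.47% lower and 7.17% higher of 7472 genes. For Cxcl1 the largest cluster, led by Chil3 and Ly6c2, gave -0.97 (-1.04 to -0.89) at 1128 and 577 CPM, and thinned shares were 29.6% and 18.6% of cells. A smaller cluster led by Arg1 gave -1.46 (-1.69 to -1.24).

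Cxcl3 went opposite ways within the monocyte-like class. The class ratio was -0.87 (-1.0 to -0.74). The Arg1-led cluster, of 42 and 32 cells, is also led by the interferon-induced genes Rsad2, Irf7 and Ifit2. It held 833 of the 1001 wild-type-labelled Cxcl3 UMIs, at 2959.9 and 130.4 CPM and a ratio of -4.50 (-5.04 to -4.01); 3 of its cells held 58.1% of those UMIs. In this small cluster 34.2% of the genes measured were past 1.5-fold in either direction. The largest cluster alone stood at 71.2 and 207 CPM, a ratio of 1.54 (1.3 to 1.78). Without the Arg1-led cluster the class had 64.9 and 194 CPM and a ratio of 1.58, so the direction of the class rests on those cells. In the Arg1-led cluster Cxcl2, at 24830.2 and 8868 CPM, and Cxcl1, at 2366 and 859 CPM, were lower in the deficient-labelled library as well.

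**Figure D4:**
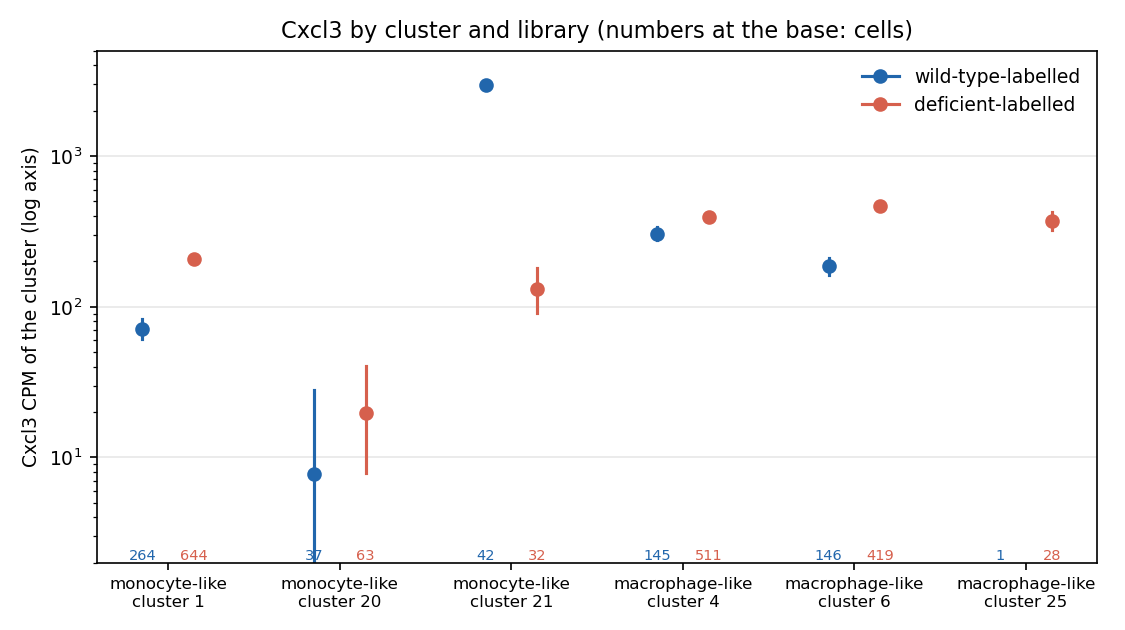
Cxcl3 level of each monocyte-like and macrophage-like cluster in both libraries, in CPM on a log axis with exact Poisson 95% intervals; the numbers at the base are cells, and the single wild-type-labelled cell of cluster 25 had 0 UMIs. Cluster 21, the Arg1-led one, stands at 2959.9 and 130.4 CPM, while cluster 1 stands at 71.2 and 207 CPM.

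Eosinophil-like cells (420 and 244 cells) had ratios of -0.40 (-0.53 to -0.28) for Cxcl2, -0.39 (-0.72 to -0.07) for Cxcl3 and -0.30 (-0.57 to -0.03) for Cxcr4. Cxcl1 was past 1.5-fold higher, the only 1 of 4 measured members, but its interval of -0.19 to 1.36 held 0 and rests on 38 and 25 UMIs. The background was 12.1% higher and 11.1% lower. Among the classes compared, Cxcl2 was thus lower in the deficient-labelled library in each of the 4 named classes with its highest CPM. Their log2 ratios ran from -0.49 to -0.40, all within 1.5-fold. Cxcl2 kept that sign in those 4 classes under every alternative run.

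In B cell-like, cDC1-like and T cell-like cells the Cxcl2 difference ran the other way. B cell-like cells (85 and 576 cells) had a Cxcl2 ratio of 2.31 (1.71 to 2.97) and a Cxcl1 ratio of 0.78 (-0.27 to 2.04), the 2 of 3 measured members past 1.5-fold higher with none lower, against 15.8% higher and 8.69% lower of all genes. cDC1-like cells (138 and 515 cells) had 1.46 (1.34 to 1.59) for Cxcl2 and 1.53 (0.86 to 2.28) for Cxcl1, from 20 and 179 UMIs. These were the 2 of 4 measured members past 1.5-fold higher with none lower, against 5.71% higher and 6.13% lower. The Cxcl1 ratio of cDC1-like cells was -0.68 with no mitochondrial limit, and so has no stable direction across settings. Under that setting the class held other cells, 212 and 686. In the reported clusters of the class the Cxcl1 ratio was 1.80 (0.87 to 2.90) and 1.21 (0.24 to 2.34), from 10 wild-type-labelled UMIs each. The Cxcl2 ratio of cDC1-like cells kept its sign but was within 1.5-fold with no mitochondrial limit (0.32), a 10% limit (0.31) or coarser clusters (0.30). Lyz2 stood at 481 and 724 CPM in this class.

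T cell-like cells (102 and 397 cells) had 0.66 (0.56 to 0.75) for Cxcl2, 1.44 (1.09 to 1.81) for Cxcl1 and 2.53 (1.67 to 3.55) for Cxcl3, the 3 of 4 measured members past 1.5-fold higher with none lower, against 19.0% higher and 11.6% lower. Most of the Cxcl1, Cxcl2 and Cxcl3 lay in 1 deep cluster of 15 and 162 cells, with T cell receptor genes and a median of 14657 UMIs. This cluster held 952 of the 995 and 7865 of the 8210 Cxcl2 UMIs of the class. In the wild-type-labelled library 3 cells held 82.6% of the T cell-like Cxcl2 UMIs, so the Cxcl2 ratio rests on few cells. Removing doublets by score rank takes 26.6% of the cells of the deep cluster. Without this cluster the T cell-like class had 19.5 and 17.1 CPM of Cxcl1 and 5.84 and 6.83 CPM of Cxcl3, and a Cxcl2 ratio of 1.82 at 83.7 and 295 CPM.

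Several myeloid genes were higher in the lymphocyte classes of the deficient-labelled library too, and others were not. In B cell-like cells Il1b stood at 7.62 and 185 CPM and C1qa at 7.62 and 35.2, and the 14 macrophage markers summed to 962 and 1307 CPM, with C1qc, Adgre1, Mrc1, Ms4a7, Mertk and Fcgr1 at 0 in the wild-type-labelled library and none at 0 in the other. The 12 neutrophil markers summed to 81.2 and 133 CPM, with Retnlg, Mmp9, G0s2 and Mmp8 at 0 in the first and G0s2 and Lcn2 in the second. Lyz2 stood at 74.7 and 464 CPM in NK or ILC1-like and 364 and 1396 CPM in T cell-like cells. C1qa was at 194 and 189 CPM in T cell-like cells, a class that includes the deep cluster of 15 and 162 cells. S100a8 was at 7.62 and 2.90 CPM in B cell-like, 5.55 and 2.12 in T cell-like and 16 and 3.57 in NK or ILC1-like cells. Neutrophil-like cells, where S100a8 was highest, made up 10.6% and 2.51% of all cells. Empty droplets were not analysed here, so free RNA itself was not measured, and its part in the higher Cxcl1, Cxcl2 and Cxcl3 of these classes was not tested.

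In cDC2-like cells (464 and 1009 cells) Cxcl3 had a ratio of 0.98 (0.78 to 1.18) and Cxcl12 of 2.60 (1.29 to 4.27), from 5 and 58 UMIs of Cxcl12. They were the 2 of 5 measured members past 1.5-fold higher with none lower, against 5.41% higher and 4.68% lower. Cxcl2 had 0.34 (0.30 to 0.37) and Cxcl1 -0.02 (-0.15 to 0.12), and neither has a stable direction: Cxcl2 was -0.20 with doublets removed by score rank. Fibroblast genes were higher beside Cxcl12 in this class, Fbln1 at 0.312 and 2.60 and Serping1 at 0.468 and 2.03 CPM, though the 11 fibroblast markers summed to 336 and 348 CPM, with Lum at 0 in the wild-type-labelled library. Lyz2 stood at 639 and 1344 and C1qa at 33.2 and 64.3 CPM. The part of such RNA in the ratios was not tested. Of the 2 cDC2-like clusters where Cxcl3 could be measured, the largest one had 1.64 (1.38 to 1.91) and the dividing one -0.30 (-0.62 to 0.02). Without the largest cluster the class ratio was -0.21. In the dividing cluster 1 of 69 wild-type-labelled cells held 58.0% of the Cxcl3 UMIs, so both negative ratios rest on few cells. The Plet1-led dendritic cluster (197 and 440 cells) had 1.46 (1.12 to 1.81) for Cxcl1 and 1.0 (0.66 to 1.36) for Cxcl3, its 2 of 4 measured members past 1.5-fold higher with none lower, against 8.82% higher and 8.49% lower. In the wild-type-labelled library 3 of its cells held 49.4% of 85 Cxcl1 UMIs, and 3 held 56.2% of 89 Cxcl3 UMIs. In this cluster Lyz2 stood at 666 and 1497 and C1qa at 10.4 and 28.6 CPM, and the 14 macrophage markers summed to 409 and 574 CPM, with Mertk and Fcgr1 at 0 in the wild-type-labelled library. Their part was not tested. In the shallow Gm26917-led cluster only Cxcl2 could be measured, at -0.45 (-0.63 to -0.27), and did not pass 1.5-fold, where 12.6% of genes were higher and 11.2% lower.

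Cxcr4 differed little in every class compared. Its log2 ratio ran from -0.31 (-0.46 to -0.16) in B cell-like cells to 0.26 (0.15 to 0.37) in monocyte-like cells and passed 1.5-fold in none of the 9 classes where it was measured. It was lower in the deficient-labelled library in both lymphocyte and both granulocyte classes compared, in cDC1-like cells and in the Plet1-led cluster. It was higher in monocyte-like, macrophage-like (0.23 (0.11 to 0.35)) and cDC2-like cells (0.10 (0.02 to 0.19)). Within single clusters it reached 0.95 in a small monocyte-like cluster led by Ccnb1ip1. Cxcr4 was also past 1.5-fold higher in the Arg1-led monocyte-like cluster, at 0.69 (0.26 to 1.14). The C1q-high macrophage-like cluster, of 146 and 419 cells, had 0.67 (0.45 to 0.88), likewise past 1.5-fold. The Il10-led macrophage-like cluster had 0.07 (-0.08 to 0.22). In the other clusters measured it stayed within 1.5-fold.

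**Figure D5:**
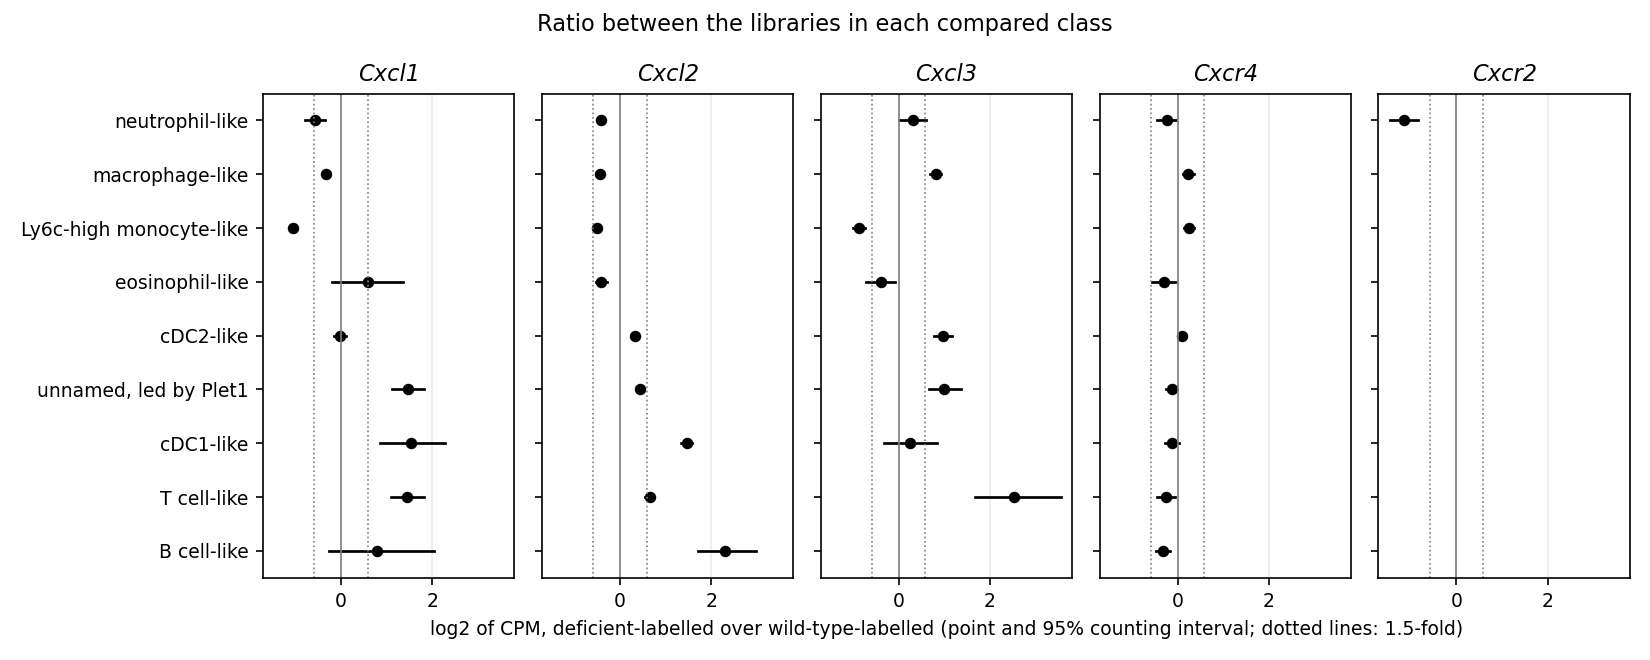
Log2 of the deficient-labelled divided by the wild-type-labelled CPM of 5 genes in each compared class except the Gm26917-led cluster; points are ratios, bars are 95% counting intervals and dotted lines mark 1.5-fold. Cxcl2 lies left of 0 in the 4 uppermost classes and right of 0 in the others, while Cxcr4 stays inside the dotted lines throughout.

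A list of 46 genes around this pathway was read for context: inducing cytokines and receptors, Toll-like receptor and NF-kB genes with regulators of mRNA decay, receptor signalling, adhesion molecules and the other ligands and scavengers. In monocyte-like cells 35 of them were measured, 2 higher and 2 lower past 1.5-fold (7.17% and 7.47% of all genes), with a median log2 ratio of -0.17 against a value near 0 over all genes. Il6 (-1.15) and Il1a (-0.99), both cytokines of acute inflammation, were the lower ones. Cd74 (0.98), the invariant chain of MHC class II and a receptor of MIF, and the adhesion molecule gene Vcam1 (1.08) were the higher ones.

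In macrophage-like cells 35 were measured, 2 higher and 1 lower (8.78% and 4.93% of all genes), with a median near 0 against 0.05 over all genes. Tnf, which induces these chemokines and was the gene most like Cxcl1 over the profiles, stood at 1226 and 566 CPM, a log2 ratio of -1.11. Csf3, which encodes granulocyte colony-stimulating factor, had 0.79, and the interleukin 1 receptor gene Il1r1 had 0.80. In neutrophil-like cells 29 were measured, 3 higher and 4 lower (13.8% and 9.73% of all genes), with a median of -0.21 against 0.01. Zfp36 (-0.75), whose protein speeds the decay of cytokine and chemokine mRNAs, Grk2 (-0.63), a kinase that desensitises chemokine receptors, Nfkbiz (-0.60) and Tnfrsf1a (-0.59) were the lower ones. Cd74 (2.08), Mif (0.77) and Rela (0.73) were the higher ones.

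In eosinophil-like cells 24 genes of the list were measured, 5 higher and 2 lower (12.1% and 11.1% of all genes), with a median of 0.02 against -0.06. Il6 stood at 91.9 and 1310.2 CPM (3.83) and Il1b at 355 and 1214 CPM (1.77), the inducing cytokines that differed most there. Cd74 (1.95), Arrb2 (1.03), which encodes a beta-arrestin, and Tnfrsf1b (0.60) were also higher, and Grk6 (-1.18), which encodes a receptor kinase, was among the lower ones. In T cell-like cells 8 of 31 were higher and 1 was lower (19.0% and 11.6% of all genes), with a median of 0.20 against 0.01. Il6 (2.92), Il1b (2.04) and Il1a (1.89) led, genes that T cells are not known for. In 1 of the T cell-like clusters compared singly, 2 of 19 list genes were higher and 0 lower (10.6% and 7.20% of all genes). In the other, 2 of 16 were higher and 3 lower (11.5% and 12.8% of all genes). The deep T cell-like cluster was not compared singly.

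In cDC2-like cells 3 of 35 were higher and 3 lower (5.41% and 4.68% of all genes), with a median of -0.10 against 0.00. Il1b (0.75, 1219 and 2053 CPM), Il1r1 (0.72) and Tlr4 (1.17) were higher, and Selp (-1.42) and Sele (-0.85) were among the lower ones. The shares of all genes past 1.5-fold in the next 3 classes are those given with the members. In cDC1-like cells 2 of 29 were higher, Il6 (1.87) and Il1b (0.77), and 4 lower, among them the integrin gene Itgam (-0.77), Tnf (-0.66) and Nfkbiz (-0.63). In the Plet1-led cluster 5 of 30 were higher, among them Il6 (1.2) and Il1b (1.08), and 1 lower. In B cell-like cells 2 of 24 were higher, Il1b (4.6) and Itgam (3.14), both myeloid genes, and 2 lower. Il1b was thus past 1.5-fold higher in each dendritic, lymphocyte and eosinophil-like class compared.

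Immediate-early and heat shock genes, which respond to cell handling, were read beside these ratios from a list of 12 chosen after values were seen. Of the 12, 5 were past 1.5-fold lower in neutrophil-like, 5 in monocyte-like and 2 in macrophage-like cells, and none was higher in these 3 classes. Egr1 had log2 ratios of -0.66, -1.17 and -1.27, Atf3 -0.87, -0.61 and -0.59, and the heat shock gene Hspa1a 0.43, 0.13 and 0.02. Egr1 and Atf3 were thus lower in these 3 classes, where Cxcl2 was lower too. In eosinophil-like cells, where Cxcl2 was also lower, 5 of the 12 were higher and 1 lower, with Hspa1a at 3.42, Atf3 at 1.05 and Egr1 at -0.06. In cDC2-like cells, where the Cxcl2 ratio of 0.34 had no stable direction, 2 were higher and 2 lower, with Hspa1a at 1.62 and Atf3 at -0.62. The part of cell handling in Cxcl2 was not tested. The shares of all genes past 1.5-fold in each class are those given with the members.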

How the data were processed

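Raw UMI counts per gene and barcode were taken from the deposited matrices of both libraries, made with Cell Ranger, STAR 2.5.1b and the mm10 build per the submitters' processing notes. Per the file headers, the matrices come from version 3.0.2 of the software. The authors' filters on barcodes are not given in the sources used here. The kit is a V3 3' kit per the labels' protocols. Barcodes with at least 500 UMIs, 200 genes and at most 20% mitochondrial UMIs were kept. Scrublet marked 5 and 1 doublets, under 0.5% of cells, so it did not work and removal by score rank was run as an alternative. Counts were scaled to 10000 per cell and logged, 2000 variable genes were chosen without the 7 members, and 30 principal components, 15 neighbours and Leiden resolution 1 gave the clusters (scanpy 1.11.5, leidenalg 0.10.2, igraph 0.11.9), with no batch correction. Clusters were named from fixed marker lists of 25 cell types, which needed at least 3 detected markers. Since no member was used in clustering, levels by class do not restate it.

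Levels are summed UMIs per 1000000 UMIs with exact Poisson intervals. Shares have exact Clopper-Pearson intervals after thinning each cell to 1000 UMIs, and ratios have exact conditional binomial intervals (scipy 1.17.1), all at 95%. Classes were compared from 50 cells in each library and genes from 50 UMIs over both, and levels were given from 20 cells. Past 1.5-fold means a log2 ratio over 0.585 in size. The ratio script was tested on simulated data. With 1 library per group there is no p-value. PCR duplicates are removed by the UMIs, and intervals cover counting error only.

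All 7 members are named. Of genes alike, the 3 with the highest correlation of log2(CPM + 10) to a member were taken among genes with at least 200 UMIs. Of the pathway list, up to 3 genes per role and class with the largest ratio in size were named, and other cell types' markers where they move with a member. The 7 members, the marker lists and the pathway list were chosen with earlier results of these data known, and the list of 12 immediate-early and heat shock genes after the values were seen. Gene positions are from GENCODE vM21 on GRCm38, and promoter windows from RefSeq on GRCm38.p6. Alternatives changed the mitochondrial limit, doublet removal, resolution, the clustering genes, the classes and the scaling. Leaving out the cell with most UMIs of a gene, or single clusters of a class, was added after seeing the data. Some items of the marker and pathway lists are not reported here.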

Additional observations from a re-analysis of the deposited data

Results flagged for a closer look

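Cxcl3 had opposite directions in 2 cell classes. Its log2 ratio, deficient-labelled over wild-type-labelled, was -0.87 (-1.0 to -0.74) in Ly6c-high monocyte-like cells but 2.53 (1.67 to 3.55) in T cell-like ones, 3.4 apart on the log2 scale. The difference was not tested, since each class has 1 library per group. Both ratios rest on single clusters: without the Arg1-led cluster the monocyte-like ratio was 1.58, and without the deep T cell-like cluster the level in T cell-like cells was 5.84 and 6.83 CPM.

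Cxcl1 had a log2 ratio of 1.53 (0.86 to 2.28) in cDC1-like cells and -1.05 (-1.12 to -0.98) in Ly6c-high monocyte-like cells, 2.58 apart. This difference was not tested either. The cDC1-like value rests on 20 and 179 UMIs and was -0.68, -0.60 and -0.70 under 3 alternatives, in which the class held more cells. The monocyte-like value stayed below 0 in all 14 alternatives run for it.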

How the results depend on the processing

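No paired analysis was possible because each group has 1 library and the result comes from no test, and for the same reason no replicate could be left out. Ratios of the Plet1-led and Gm26917-led clusters were not run under other settings and are left out here. Over 34 log2 ratios and 25 settings, 296 of 413 values stayed within the counting interval of the ratio as reported. Another 111 went beyond it, and 6 values of ratios reported past 1.5-fold turned sign. Sign changes of ratios reported within 1.5-fold were not counted apart and lie among the 296 and the 111. Those 6 were Cxcl3 in cDC2-like cells without cluster 0, the largest of that class (-0.21), Cxcl3 in monocyte-like cells without cluster 21, the Arg1-led one (1.58), Cxcl1 in B cell-like cells as a mean over cells of per-cell CPM (-0.35), and Cxcl1 in cDC1-like cells with no mitochondrial limit (-0.68), a 10% limit (-0.60) or Leiden resolution 0.5 (-0.70). Cxcr2 in neutrophil-like cells stayed past 1.5-fold lower in the 12 settings, from -1.33 to -0.86.

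The counts of members past 1.5-fold are small and 37 of 198 values went beyond 1.5 times the reported count. In cDC2-like cells the count higher was 1 in place of 2 with no mitochondrial limit, doublets removed by score rank, the members kept among the clustering genes, the direct marker gate, or without cluster 10 or 12, and 0 without cluster 0. The count lower was 1 in place of 0 with the score rank, the members kept or without cluster 0. In monocyte-like cells the count higher was 1 in place of 0 at resolution 0.5 and without cluster 1 or 21, and the count lower 1 in place of 2 at resolution 0.5, with the gate, without the cell with most UMIs and without cluster 21. In eosinophil-like cells the count higher was 0 in place of 1 with the 10% limit or the score rank, and the count lower 1 in place of 0 without the cell with most UMIs. This class could not be compared under the gate, which left 50 and 7 cells. In B cell-like cells the count higher was 1 in place of 2 as a mean over cells. In macrophage-like cells the count higher was 1 in place of 2 with the score rank, the gate or the mean over cells, and 0 without cluster 6, and the count lower was 1 in place of 0 with the 10% limit. In cDC1-like cells the count higher was 0 in place of 2, and lower 1 in place of 0, with no mitochondrial limit, the 10% limit and resolution 0.5. In neutrophil-like cells the count higher was 1 in place of 0 with the score rank or resolution 2, and the count lower 2 in place of 1 without the cell with most UMIs. In T cell-like cells the count higher was 1 in place of 3 with the score rank or without cluster 14. The cause was not tested beyond what leaving out cells or clusters shows by itself. With size factors in place of totals, the log2 shifts subtracted from the ratios lay between -0.06 and 0.05.

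Of shares, 19 values stayed within their interval and 99 did not when cells were thinned to 500 UMIs or not thinned, since a share rises with depth. Cxcl5, Cxcl12 outside fibroblast-like cells and Cxcr2 outside neutrophil-like cells are limited by depth.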

Other observations

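Among the barcodes left out for more than 20% mitochondrial UMIs, 325 and 200 with at least 500 UMIs and 200 genes, Cxcl2 stood at 2070.2 and 2603 CPM, Cxcl1 at 124 and 217, Cxcl3 at 29.1 and 86.8 and Cxcr4 at 107 and 188 CPM. In the cells kept, Cxcl2 stood at 5687 and 3834 CPM. Cxcr2 had 0 UMIs there in the wild-type-labelled library, which allows up to 5.46 CPM at 3 counts, and 2 UMIs in the deficient-labelled one.

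Among the small classes not compared between libraries, the mature dendritic cell-like cells had Cxcl3 levels of 77.2 (56.7 to 103) and 69.7 (54.0 to 88.5) CPM and Cxcr4 levels of 214 (178 to 254) and 254 (223 to 288) CPM. The Retnla-led cluster had a Cxcr4 level of 247 (200.5 to 301) and 229.6 (193 to 272) CPM.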
